A study of Rattus norvegicus with 5 samples.

Results

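Glutamate uptake and glutamine synthesis in the retina were followed through 8 genes: Glul, Slc1a1, Slc1a2, Slc1a3, Glud1, Got1, Got2 and Bcat1. All probe sets annotated to 1 of these symbols were taken, whatever their values, which gave 23 of the 8740 probe sets that are not controls. A probe set is a group of short oligonucleotides on the array that reads 1 transcript, or for names ending in _s_at possibly several. After the filter on dim signal 20 of the 23 could be tested, at least 1 for each of the 8 genes. The series as a whole has 4736 genes with such a probe set. The RNA came from Müller cells, the main glia of the retina, isolated from male Sprague-Dawley rats and hybridised to 5 rat RG_U34A arrays. The normal group held 3 pools, each of 12 healthy rats and on 1 array of its own. The diabetic group held the retinas of 12 rats with 6 months of diabetes, induced with streptozotocin and kept from wasting by small doses of insulin. Those cells were read on 2 arrays, of which the labels call the second a technical replicate, so the group counts as 1 pool. Its spread between animals or pools was therefore not measured, and precision is limited by how few arrays there are.

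Glutamate released by photoreceptors and bipolar cells is cleared by sodium-coupled carriers, of which GLAST (Slc1a3) is the principal one of Müller cells. GLT-1 (Slc1a2) is found mainly in cones and bipolar cells, and EAAC1 (Slc1a1) mainly in neurons. Inside the Müller cell, glutamine synthetase (Glul) joins ammonia to glutamate and returns glutamine to neurons. Glutamate can instead be oxidised through glutamate dehydrogenase (Glud1) or exchange its amino group through the aspartate aminotransferases (Got1 in the cytosol, Got2 in mitochondria) and the cytosolic branched-chain aminotransferase (Bcat1).

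The sequences before the annotated starts of Glul and Slc1a3, which define the enzyme and the carrier of the Müller cell, are shown from RefSeq (build GRCr8). Each line is the 250 bases before a start, read on the gene's strand, with capitals for the CCAAT box (CCAAT) and the GC box (GGGCGG) on either strand. Glul has 2 listed starts on the plus strand, with the first line at chr13:68519250-68519499 and the second at chr13:68575816-68576065. The Slc1a3 line is the minus strand of chr2:59557809-59558058, before the first of its listed starts.
Glul, first start: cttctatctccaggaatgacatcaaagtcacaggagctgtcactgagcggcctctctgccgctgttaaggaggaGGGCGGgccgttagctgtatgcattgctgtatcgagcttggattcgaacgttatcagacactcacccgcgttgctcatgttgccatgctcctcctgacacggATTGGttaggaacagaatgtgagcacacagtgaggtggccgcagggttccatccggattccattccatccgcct
Glul, second start: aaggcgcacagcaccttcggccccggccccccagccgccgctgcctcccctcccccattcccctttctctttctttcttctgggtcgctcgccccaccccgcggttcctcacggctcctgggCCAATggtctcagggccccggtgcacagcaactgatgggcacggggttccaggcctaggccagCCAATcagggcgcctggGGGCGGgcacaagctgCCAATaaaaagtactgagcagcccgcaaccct
Slc1a3: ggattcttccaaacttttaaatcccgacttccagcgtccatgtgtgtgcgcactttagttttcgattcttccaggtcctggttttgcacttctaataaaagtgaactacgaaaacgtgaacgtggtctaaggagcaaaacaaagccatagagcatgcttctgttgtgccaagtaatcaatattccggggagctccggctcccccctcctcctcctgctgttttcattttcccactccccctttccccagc
The second Glul line held 3 CCAAT boxes and 1 GC box, the first line held 1 of each, and the Slc1a3 line held neither. Of the 8 genes 7 had an entry, and a CCAAT box was present for 3 of them (Glul, Got1 and Bcat1) and a GC box for 3 (Glul, Glud1 and Got1). Over all 33469 listed regions of that length, several for some genes, the shares were 34% and 30.5%. A TATA box (TATAAA) and an E-box (CACGTG) were looked for too, and 0 of the 7 genes had either, against 12.9% and 5.59% of regions. No matches shown overlap; they are letter matches only, and the arrays do not tell the starts apart.

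The arrays differed in more than the group. The median deposited intensity ran from 27.9 to 91.3, and values were brought to a common distribution, with a floor of 20, before any comparison. Actin signal from the 3' end over that from the 5' end, which rises as RNA degrades, was 2.61 for normal array 1, 2.55 for diabetic array 2 and 1.46 to 1.76 for the rest. Normal array 3 and diabetic array 2 shared a processing day and chip lot; diabetic array 1 has no such record. Of 15 listed Müller cell markers 10 were measured, all above the floor on every array. The 8 that are not among the genes studied here summed to 26248 to 33291 on the normal arrays and to 30261 and 31453 on the diabetic arrays, with 1 gene above and 7 below normal and a median log2 difference of -0.21. The 1 above was Clu, with 6483 to 9188 on the normal arrays and 11797 and 10950 on the diabetic arrays, a large part of those sums. Photoreceptor markers lay above normal in 9 of 9 genes, with sums of 5350 to 12196 on normal arrays and 15169 and 15622 on diabetic arrays. Leukocyte markers lay above normal in 9 of 11 genes, with sums of 1640 to 1982 and then 2307 and 2497; Coro1a was at the floor on 2 normal arrays, and Csf1r, too dim to test, on 4 of the 5 arrays. Inner neuron markers lay below normal in 12 of 18 genes, with sums of 2209 to 3575 and then 2646 and 3005, and Sncg was at the floor on both diabetic arrays and normal array 3, with 20.6 on normal array 1 and 150.2 on normal array 2. Endothelial and pericyte markers lay below normal in 5 of 6 genes, with sums of 2518 to 3431 and then 2419 and 2925. The part of other cells in the values below was not tested, and in such RNA fewer cells of a type cannot be told apart from less RNA per cell.

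**Figure D1:**
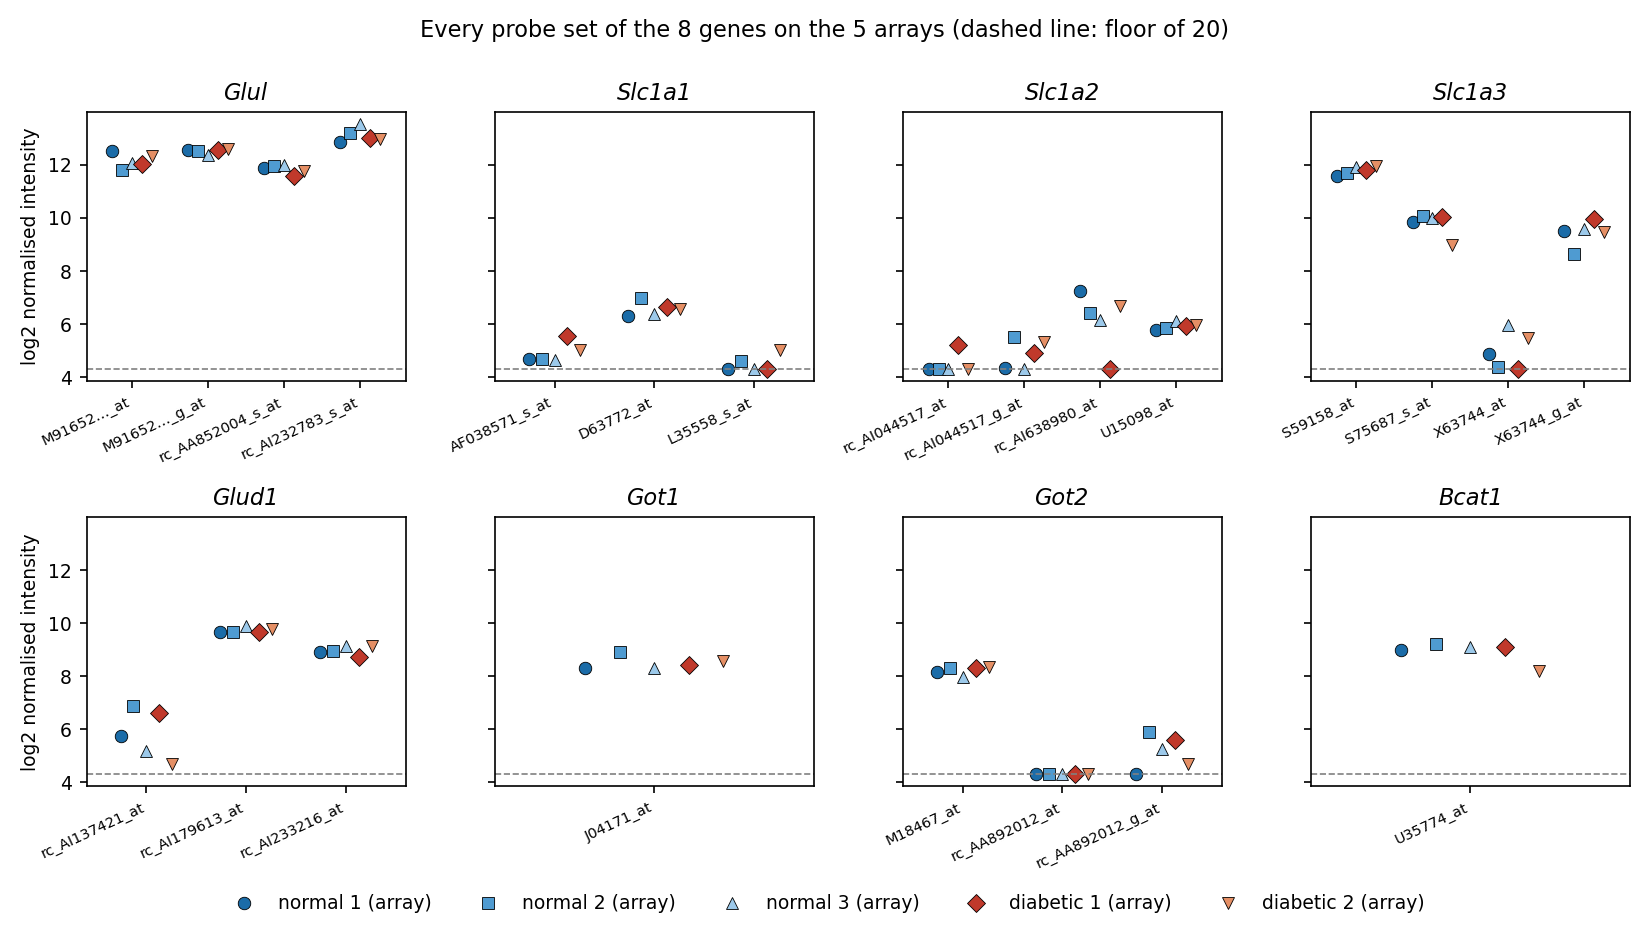
Normalised log2 intensity (vertical axis) of all 23 probe sets of the 8 genes, with 1 panel per gene, 1 column per probe set and 1 symbol per array; the dashed line is the floor of 20. The 4 Glul probe sets sit far above the floor on all 5 arrays, while the probe sets of Slc1a1 and Slc1a2 lie nearer to it.

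For none of the 8 genes did limma's test call a change in the diabetic pool, and the intervals were wide. Of the 20 tested probe sets 9 lay above and 11 below the normal mean, with a median log2 difference of -0.01, the same as the -0.01 over all 6118 tested probe sets. The median size of the difference, without its sign, was 0.19 for the 20 and 0.23 for all. At an adjusted p under 0.05 limma called 0 of the 20, against a background of 0% of all tested probe sets, and at an unadjusted p under 0.05 it called 0 of 20, against 1.6%. The lowest unadjusted p was 0.104, the adjusted p was 0.99992 for each of the 20 (limma, Benjamini-Hochberg over all tested probe sets), and no other tool was run. For 2 of the 20 probe sets both diabetic arrays exceeded every normal array, against 9.53% of all, and for 1 both lay under every normal array, against 7.01%, so both shares were near the background. The 95% intervals of the log2 differences were between 1.15 and 3.75 wide, and each of the 20 included 0.

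Glul, the defining enzyme of the Müller cell, gave high signal on all arrays, and its 4 probe sets placed the diabetic pool both above and below normal. Probe set rc_AI232783_s_at read 7532, 9373 and 11797 on normal arrays 1 to 3 and 8290 and 7984 on diabetic arrays 1 and 2. Both diabetic values lay inside the range of the normal pools. The log2 difference was -0.21 (SE 0.33, 95% interval -1.03 to 0.61, 3 normal pools and 1 diabetic pool, limma). On normal array 3 this probe set was the brightest of all deposited probe sets that are not controls, so its value there was set by the top of the common distribution.

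Probe set rc_AA852004_s_at of Glul read 3737, 4014 and 4085 on the normal arrays and 3072 and 3482 on the diabetic arrays. It was the only tested probe set of the 8 genes with both diabetic arrays below all normal arrays. Its log2 difference was -0.27 (SE 0.23, interval -0.85 to 0.31), or -0.23 between the arrays of the shared day and lot. M91652complete_seq_at read 5901, 3556 and 4276 and then 4149 and 5157, and M91652complete_seq_g_at read 6002, 5901 and 5252 and then 6002 and 6220. For both the groups overlapped, with log2 differences of 0.05 (SE 0.34) and 0.10 (SE 0.24). These 2 differences were -0.04 and -0.06 when arrays were scaled to a common median, and under that scaling rc_AI232783_s_at joined rc_AA852004_s_at below all normal arrays. The intervals of the 4 probe sets together ran from -1.03 to 0.91. That spans no difference as well as slightly more than 2-fold lower and nearly 2-fold higher levels.

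Slc1a3, the glial carrier GLAST, also had 4 tested probe sets that pointed both ways. S59158_at read 3072, 3298 and 3886 on the normal arrays and 3596 and 4014 on the diabetic arrays. Diabetic array 2 was the highest of the 5, and diabetic array 1 lay between normal arrays 2 and 3. The log2 difference was 0.16 (SE 0.26, interval -0.48 to 0.80). S75687_s_at read 910, 1089 and 1032 on the normal arrays, 1036 on diabetic array 1 and 508 on diabetic array 2. Only the second diabetic array was low, and the first lay within the normal range. The log2 difference was -0.47 (SE 0.24, interval -1.08 to 0.14), but 0.04 when diabetic array 2 was left out and -0.98 when diabetic array 1 was left out.

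X63744_g_at of Slc1a3 read 725, 394 and 774 on the normal arrays and 988 and 703 on the diabetic arrays. Here diabetic array 1 was the highest of the 5 and diabetic array 2 lay within the normal range. The log2 difference was 0.46 (SE 0.44), 0.15 without normal array 2, 0.72 without diabetic array 2, and -0.14 between the arrays of the shared day and lot. X63744_at had values from 20 to 62.0 over the 5 arrays and a log2 difference of -0.18 (SE 0.72).

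Slc1a2, the carrier GLT-1, read between 20 and 153 over its 4 probe sets and the 5 arrays. U15098_at read 54.8, 57.3 and 68.9 on the normal arrays and 61.6 and 63.1 on the diabetic arrays, a log2 difference of 0.06 (SE 0.46, interval -1.10 to 1.21). Both diabetic arrays lay inside the normal range. rc_AI638980_at had the largest difference of the 20 probe sets, -1.10 (SE 0.57, interval -2.54 to 0.33), and it rested on 1 array. It read 153, 85.2 and 72.0 on the normal arrays, 20 on diabetic array 1, which is the floor, and 104 on diabetic array 2. The difference was 0.08 with diabetic array 1 left out, -2.22 with diabetic array 2 left out, and 0.53 between the arrays of the shared day and lot. rc_AI044517_g_at ranged from 20 to 45.9 with overlapping groups. rc_AI044517_at, which was not tested, stood at the floor on all arrays but diabetic array 1, where it read 37.5.

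Slc1a1, the neuronal carrier EAAC1, read between 20 and 126 over its 3 probe sets. AF038571_s_at read 25.99, 25.5 and 25.04 on the normal arrays and 47.4 and 33.0 on the diabetic arrays. Both diabetic arrays lay above the normal ones, by a log2 difference of 0.63 (SE 0.45, interval -0.50 to 1.77), at values just above the floor. The difference was 0.37 on diabetic array 2 alone and 0.89 on diabetic array 1 alone. D63772_at read 80.1, 126 and 82.3 and then 99.9 and 94.6, with overlapping groups and a log2 difference of 0.05 (SE 0.47). L35558_s_at was not tested and stood at the floor on 3 of 5 arrays.

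**Figure D2:**
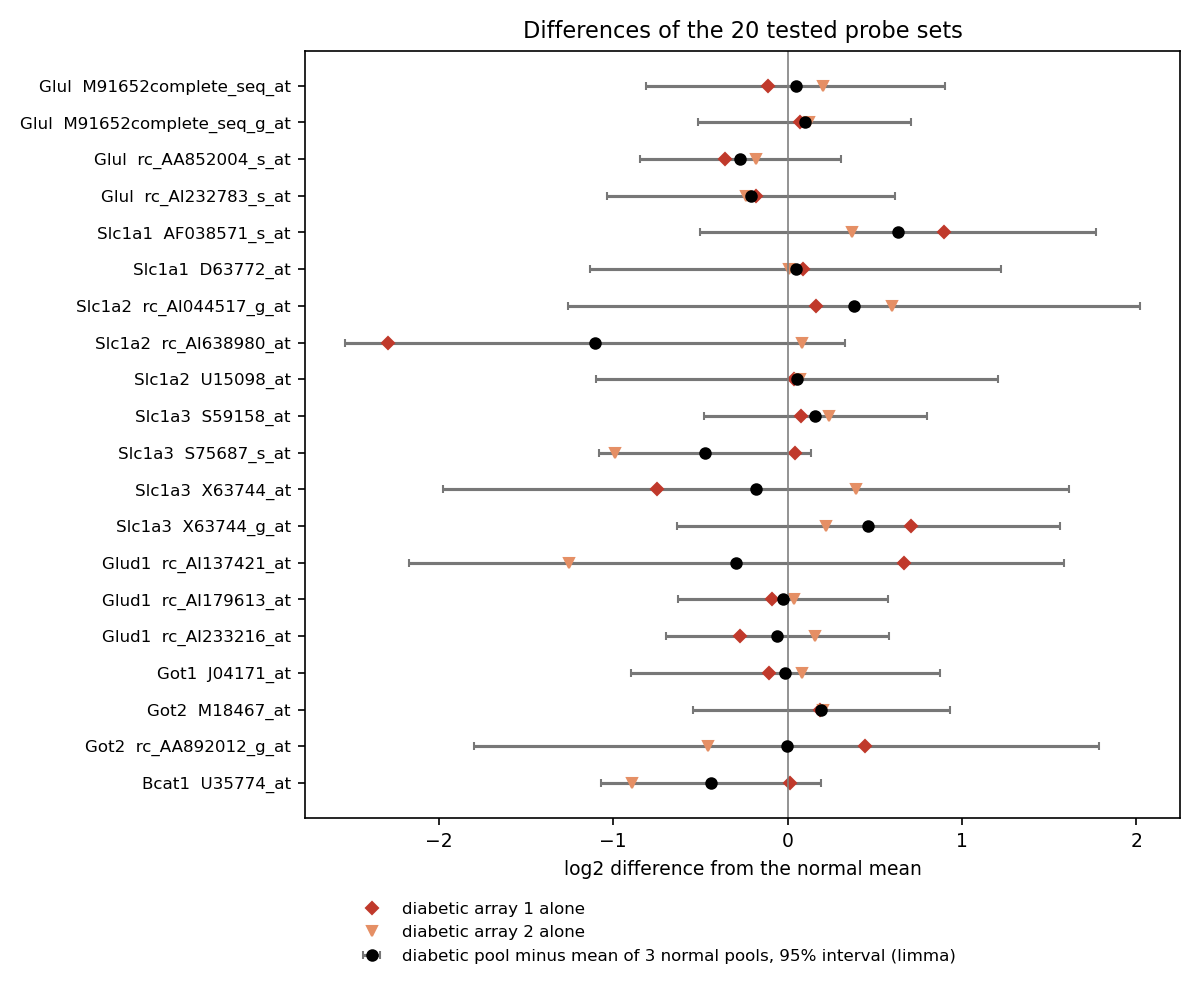
Log2 difference of the diabetic pool from the mean of the 3 normal pools (black points) with its 95% interval from limma (bars) for the 20 tested probe sets, and each diabetic array alone (coloured symbols). Every interval includes 0, and the 2 diabetic arrays lie apart most for Slc1a2 rc_AI638980_at.

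Among the enzymes that consume or form glutamate, Glud1 and Got1 had diabetic values that overlapped normal ones on each tested probe set. For Glud1, rc_AI179613_at read 821, 816 and 946 on the normal arrays and 809 and 880 on the diabetic arrays, a log2 difference of -0.03 (SE 0.24, interval -0.63 to 0.58). rc_AI233216_at of Glud1 read 479, 495 and 559 and then 422 and 568, a difference of -0.06 (SE 0.26). In these probe sets diabetic array 1 was the lowest of the 5 and diabetic array 2 was not, so the groups overlapped. rc_AI137421_at read 54.0, 118 and 36.0 on the normal arrays and 97.2 and 25.7 on the diabetic arrays, a difference of -0.29 (SE 0.75). That value ran from -1.24 without diabetic array 1 to 0.68 without diabetic array 2. Got1, read by J04171_at alone, gave 317, 486 and 318 on the normal arrays and 340 and 387 on the diabetic arrays. Its log2 difference was -0.01 (SE 0.36, interval -0.90 to 0.88), and the groups overlapped.

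Got2, the mitochondrial aminotransferase, read 283, 318 and 251 on the normal arrays and 321 and 326 on the diabetic arrays by M18467_at. Both diabetic arrays lay just above all normal arrays, and the log2 difference of 0.19 (SE 0.30, interval -0.54 to 0.93) was smaller than the range of 0.34 among normal pools. rc_AA892012_g_at of Got2 ranged from 20 to 59.8 with overlapping groups, and rc_AA892012_at stood at the floor on all 5 arrays. Under common-median scaling M18467_at no longer stood apart from the normal arrays.

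Bcat1, read by U35774_at alone, gave 509, 590 and 546 on the normal arrays, 553 on diabetic array 1 and 295 on diabetic array 2. As with S75687_s_at of Slc1a3, the first diabetic array lay inside the normal range and the second below it. The log2 difference was -0.44 (SE 0.25, interval -1.07 to 0.19). It was 0.01 with diabetic array 2 left out and -0.90 with diabetic array 1 left out. On the 3 arrays with the lowest actin ratio, which leave out diabetic array 2 and normal array 1, it was -0.04, and that of S75687_s_at was -0.03. That setting holds diabetic array 1 as the only diabetic array, so it largely repeats leaving out diabetic array 2. Normal array 1, the other array with a high ratio, read 509 for Bcat1, against 546 and 590 on the other normal arrays. The same ratio for GAPDH was 1.16, 1.24 and 1.03 on normal arrays 1 to 3 and 1.11 and 1.35 on the diabetic arrays. The part of RNA quality was not tested.

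The 2 arrays of the diabetic pool differed from each other by more than the pool differed from normal for 13 of the 20 probe sets. Their median gap was 0.37 on the log2 scale, against 0.36 over all tested probe sets, and it reached 2.37 for rc_AI638980_at of Slc1a2 and -1.92 (array 2 minus array 1) for rc_AI137421_at of Glud1. The gap was -1.03 for S75687_s_at of Slc1a3 and -0.91 for U35774_at of Bcat1. The range among the 3 normal pools exceeded the difference for 15 of the 20, with a median range of 0.48 against 0.70 over all tested probe sets. Several tested probe sets were available for 6 genes, and for 4 of these they fell on both sides of normal: Glul, Slc1a2, Slc1a3 and Got2.

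**Figure D3:**
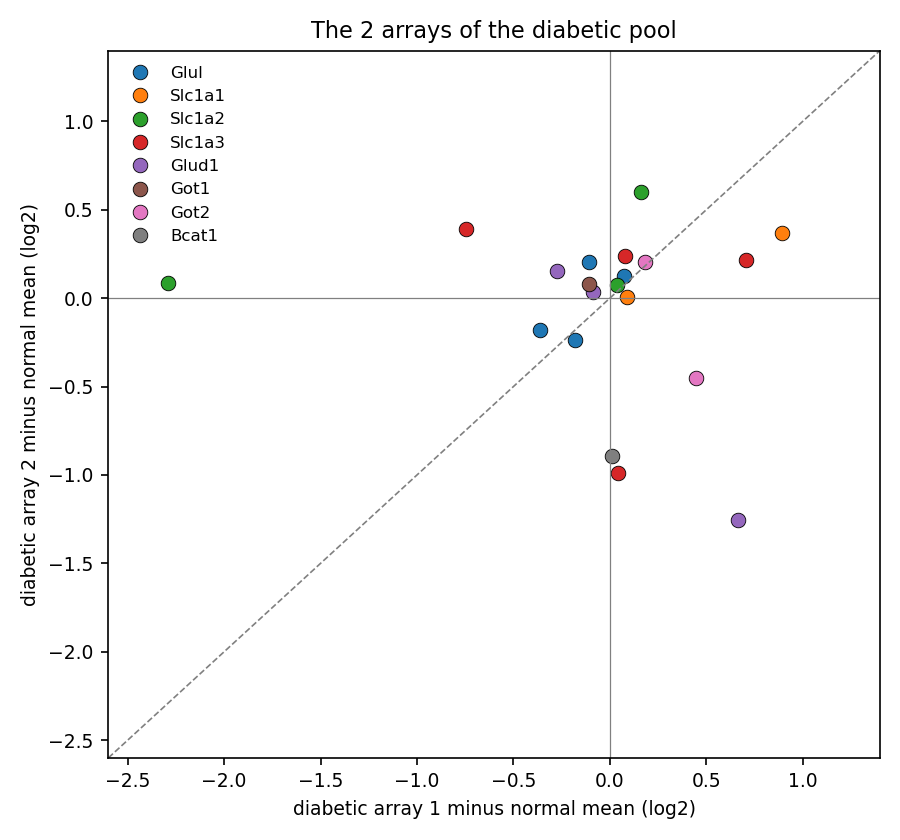
Each of the 20 tested probe sets by its log2 distance from the normal mean on diabetic array 1 (horizontal axis) and on diabetic array 2 (vertical axis), coloured by gene; the dashed line marks equal values. Points near the line repeat between the arrays, and those of Slc1a2 at -2.29 on array 1 and of Glud1, Slc1a3 and Bcat1 low on array 2 do not.

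No other listed gene of glutamate and branched-chain amino acid handling was called either. Of 44 listed genes 25 had a probe set with 1 symbol and 19 were tested, each by its brightest probe set; 10 lay above and 9 below normal, with a median log2 difference of 0.02 against -0.01 over all 3623 tested genes. By limma 0 of the 19 passed an adjusted p of 0.05 and 0 had an unadjusted p under 0.05 (lowest 0.165). Slc3a2, the heavy chain shared by several amino acid exchangers, had a log2 difference of 0.17 (SE 0.25). Slc25a11, the mitochondrial oxoglutarate carrier, differed by -0.24 (SE 0.29), but by 0.12 (SE 0.31) on its other tested probe set. Of the malate dehydrogenases that work with Got1 and Got2, Mdh1 differed by 0.07 (SE 0.25) and Mdh2 by 0.16 (SE 0.28). Of the branched-chain ketoacid dehydrogenase subunits that act after Bcat1, Bckdha differed by 0.55 (SE 0.96) and Bckdhb by -0.12 (SE 0.33). The other tested probe set of Bckdha differed by -0.13 (SE 0.55). Asns, the asparagine synthetase that uses glutamine, differed by 0.73 (SE 0.62). Gad1, which makes GABA from glutamate in neurons, differed by 0.02 (SE 0.64). The glutamate-cysteine ligase subunits Gclc and Gclm, of glutathione synthesis, differed by 0.06 (SE 0.62) and 0.13 (SE 0.66). Both were dim, with Gclc at the floor on 2 of the 5 arrays and Gclm on 1. The remaining 9 tested genes ranged from -0.75 for Gls2 to 0.29 for Gss.

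For 1 of the 19 genes, Slc3a2 (5.26%, against 9.83% of all tested genes), both diabetic arrays exceeded every normal array, and for 4, or 21.1%, they lay under every normal array, against 7.01% of all tested genes. These 4 were singled out after their values were seen, and no test was made of the share. Pc, the glial pyruvate carboxylase that feeds carbon into the citric acid cycle, read a log2 level of 7.87, 7.88 and 8.09 on the normal arrays and 7.34 and 7.59 on the diabetic arrays (difference -0.48, SE 0.30). Psat1 and Phgdh, enzymes of serine synthesis, the first of which uses glutamate as amino donor, differed by -0.36 (SE 0.26) and -0.26 (SE 0.24). Oat, the ornithine aminotransferase, differed by -0.33 (SE 0.29), but by 0.35 (SE 0.57) on its other tested probe set. The second tested probe set of Pc differed by -0.41, those of Psat1 by -0.62 and -0.24 and those of Phgdh by -0.12 and -0.02. That of Slc3a2 differed by 0.24 (SE 0.31), with overlapping groups. When arrays were scaled to a common median the count without overlap among the 19 fell from 5 to 2, Pc and Psat1. On unscaled values, with no correction for their shift, it was 3: Gad1, Asns and Gpt, each with the diabetic arrays above. The shares over all tested genes under these scalings were not taken.

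**Figure D4:**
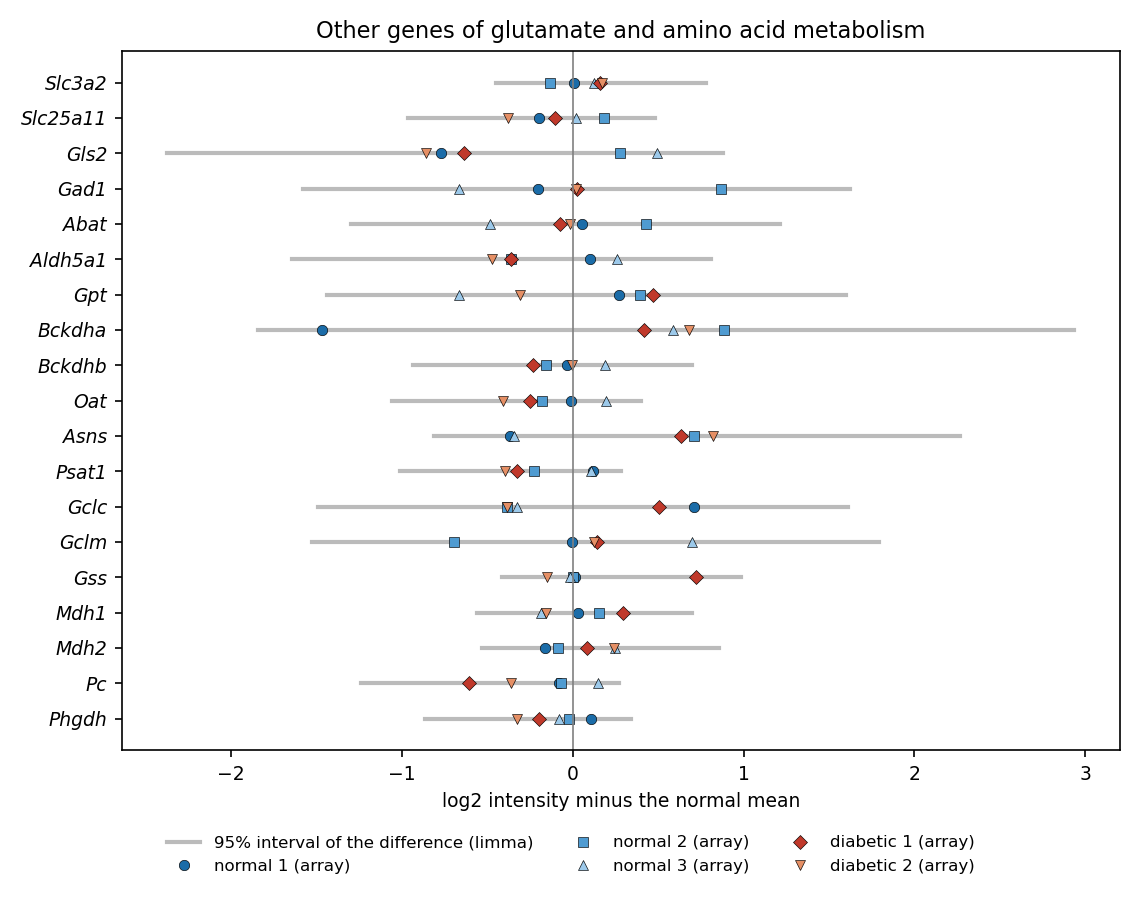
Log2 intensity minus the normal mean on each of the 5 arrays (symbols) for the 19 other tested genes at their brightest probe set, with the 95% interval of the diabetic difference from limma (grey bars). Every bar includes 0, and the diabetic symbols lie left of all normal symbols for Oat, Psat1, Pc and Phgdh.

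Over the 5 arrays, the genes whose level followed a member most closely were ranked among those that varied by at least 1 on the log2 scale, as a description of these arrays with no test; 2 of the 5 arrays share a pool. For rc_AI232783_s_at of Glul they were LOC102547703 (Pearson r = 0.991), Slc6a15 (0.989) and Qpct (0.987), out of 1509 candidates. For S59158_at of Slc1a3 they were Tango2 (0.994), Ucp3 (0.979) and Ppp1r36 (0.976). For Bcat1, out of 1508 candidates, they were Gna12 (0.997), Arf3 (0.991) and Msn (0.984). These genes were picked as the highest of many candidates over only 5 arrays, so the picking itself favoured a high r. Glul and Slc1a3 were each taken at their brightest tested probe set alone.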

How the data were processed

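The authors deposited 1 intensity, on a linear scale, for each probe set on each array; how they summarised and scaled it is not given in the sources used here. Because 2% trimmed means differed by 3.52 times between arrays, the values were quantile normalised, floored at 20 and put on the log2 scale. Next 59 control probe sets were removed, and the dimmest 30% were not tested, which left 6118. Folds near the floor are understated.

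The 2 diabetic arrays were averaged into 1 pool and compared with 3 normal pools in limma 3.58.1 (R 4.3.3; lmFit, eBayes with trend, two-sided, Benjamini-Hochberg over all tested probe sets). The spread comes from the normal pools alone (2 residual and 3.54 prior degrees of freedom), so the diabetic pool is assumed to vary like them. An exact permutation test of 1 against 3 pools could not give a p below 0.25.

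Symbols came from the platform annotation; all 23 probe sets matched the RefSeq table (GRCr8) by Entrez ID, with 0 symbols changed. The arrays' experiment records per the file headers served only to place processing days and lots. The genes and lists were chosen with earlier results of these data known. Genes named were the 8 members at every probe set, a set of other glutamate genes where measured, and those without overlap between groups. Alternatives covered scaling, floor, filter, trend, separate arrays, leaving out each array, the shared day and the actin ratio. Figures used matplotlib 3.10.9.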

Additional observations from a re-analysis of the deposited data

How the results depend on the processing

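Over the 15 alternative settings, of which the shared day and lot allowed no test, 0 of the 20 probe sets of the 8 genes and 0 of the other listed glutamate genes passed limma's adjusted threshold. Without the filter on dim probe sets, where all 23 were tested, 1 more probe set, rc_AI044517_at of Slc1a2, passed (log2 difference 0.45, adjusted p = 3.07e-04). Its 3 normal arrays were all at the floor and so had no spread, and 162 of the 170 probe sets called in that setting likewise had identical values on the 3 normal arrays. AF038571_s_at of Slc1a1 had an adjusted p of 0.0516 in that setting and could not be fitted with a floor of 50, where all arrays were at the floor. Differences of unscaled values were taken relative to their median shift of 0.47. Before that, 18 of the 20 probe sets lay above and 2 below normal. Overlap on unscaled values was counted without taking off the shift.

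Out of 20 or 21 tested probe sets of the 8 genes, the number without overlap between groups was 5 to 10 on leaving out 1 array. It was 11 of 21 on the 3 arrays with the lowest actin ratio, where fewer arrays overlap less. For the other listed genes the number was 7 to 11 of 19 or 20 on leaving out 1 array and 13 of 19 on those 3 arrays. It was 2 of 19 with common-median scaling and 3 of 19 unscaled. The shares over all tested probe sets in these settings were not taken, so no count here is read as a result.

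Most signs near 0 were not stable, and some larger differences turned sign too. Among these were Slc1a2 rc_AI638980_at (-1.10 in the main setting) and Bckdha (0.55). The cause was not tested. On unscaled values the difference was -0.020 for Glul M91652complete_seq_g_at, 0.035 for Got1, -0.39 for Gclc and -0.20 for Gclm. With common-median scaling it was -0.045 and -0.064 for the 2 M91652 probe sets of Glul and 0.045 for Got2 rc_AA892012_g_at. That Got2 probe set was at 0.49 with a floor of 5, and with a floor of 50 Glud1 rc_AI137421_at was at 0.029 and Gclm at -0.023. Between the arrays of the shared day and lot the values were 0.28 for Got1, 0.022 for Glud1 rc_AI233216_at, -0.13 for Slc1a2 U15098_at, 0.53 for Slc1a2 rc_AI638980_at, -0.14 for Slc1a3 X63744_g_at, -0.57 for Gclm, -0.062 for Gclc and -0.0026 for Mdh2. On the 3 arrays with the lowest actin ratio they were 0.028 for Got2 rc_AA892012_g_at, -0.33 for Bckdha, -0.029 for Slc1a1 D63772_at, -0.057 for Slc1a2 rc_AI044517_g_at, -0.023 for Slc1a2 U15098_at, -0.082 for Gad1 and 0.61 for Glud1 rc_AI137421_at.

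Leaving out 1 array in turn moved Glul M91652complete_seq_at between -0.11 and 0.24, Slc1a1 D63772_at between -0.068 and 0.26, Slc1a2 rc_AI638980_at between -2.22 and 0.083, Slc1a2 U15098_at between -0.0090 and 0.15, Slc1a3 S75687_s_at between -0.98 and 0.040, Slc1a3 X63744_at between -0.66 and 0.39 and Glud1 rc_AI137421_at between -1.24 and 0.68. The ranges were -0.092 to 0.041 for Glud1 rc_AI179613_at, -0.27 to 0.15 for Glud1 rc_AI233216_at, -0.12 to 0.19 for Got1, -0.45 to 0.45 for Got2 rc_AA892012_g_at, -0.90 to 0.013 for Bcat1, -0.30 to 0.45 for Gad1, -0.19 to 0.99 for Bckdha, -0.22 to 0.47 for Gclc, -0.22 to 0.39 for Gclm and -0.16 to 0.29 for Mdh1. Glul rc_AA852004_s_at and rc_AI232783_s_at, Slc1a3 S59158_at, Got2 M18467_at, Pc, Psat1, Phgdh and Oat kept their sign in all 15 settings, at -0.37 to -0.18 for the first of these and -0.56 to -0.07 for the second. The settings of floor, filter, trend and separate arrays left these differences unchanged, so the sign could not turn there. Pc, Psat1, Phgdh and Oat were singled out after their values were seen. At their brightest probe sets Asns (0.47 to 1.16), Slc3a2, Slc25a11 and Bckdhb also kept their sign in all 15 settings. Slc1a1 AF038571_s_at (0.37 to 0.96) kept its sign in the 13 settings that gave it a value. Keeping the sign did not mean keeping the size. Leaving out 1 array moved S59158_at between 0.072 and 0.28, M18467_at between 0.10 and 0.28 and Slc3a2 between 0.098 and 0.22. At their brightest probe sets, Slc25a11 moved between -0.39 and -0.11 and Bckdhb between -0.23 and -0.0052. The sign held on leaving out 1 array, but not in every setting, for X63744_g_at (0.15 to 0.72) and Slc1a2 rc_AI044517_g_at (0.093 to 0.87). The same was true of Glul M91652complete_seq_g_at (0.040 to 0.14) and Mdh2 (0.084 to 0.29). No paired analysis was possible because the diabetic group is 1 pool. Signal near the floor limits what can be seen of Slc1a1 AF038571_s_at, Slc1a2 rc_AI044517_g_at, Gclc and Gclm.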
